A study of Mus musculus with 64 samples.

Results

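The data describe 10 genes that encode the glycogen-breaking and glycolytic enzymes of skeletal muscle: Pygm, Gpi1, Pfkm, Aldoa, Tpi1, Gapdh, Pgk1, Pgam2, Eno3, and Pkm. They were chosen by name, as enzymes of the path from glycogen to pyruvate, and make up 10 of the 55401 gene rows of the count table. RNA was sequenced from the gastrocnemius of 64 mice, 4 females and 4 males in each of 8 groups. HIF1α KO mice carried floxed Hif1a alleles and a Cre recombinase under the human α-skeletal actin (HSA) promoter, and fl/fl mice were littermates with the same floxed alleles and no Cre. Each genotype was studied at Zeitgeber time (ZT) 3, the early rest phase, and at ZT15, the early active phase, either sedentary or after 60 min on a treadmill at 16 m/min and a 5% incline. Muscle was taken 3 h after the run, and the labels give the same 3 h for sedentary mice, which had been on a mock treadmill. ZT3 and ZT15 therefore name the time of the run or mock run, and the muscle was collected hours later. The HSA promoter is active in muscle fibers, so the other cells of the muscle keep Hif1a. All animals were on the C57BL/6JBomTac background, and 1 exercised HIF1α KO mouse at ZT3 was left out because its library held 382 counts.

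Glycolysis turns sugar phosphate into pyruvate and yields ATP without oxygen. In muscle it is fed from glycogen, which glycogen phosphorylase opens, and fast fibers rely on it more than slow fibers do. HIF-1, the oxygen-sensitive transcription factor whose α subunit was deleted here, is known to activate many glycolytic genes through DNA sites with the core letters ACGTG. The data address whether loss of HIF1α, time of day, or exercise was accompanied by a change in these transcripts.

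All 10 genes matched 1 or more RefSeq promoter windows (GRCm38.p6, 250 bases before to 50 bases after a transcript start, 16 windows in all). The letters ACGTG, searched on either strand, stood in 8 of the 16 windows and in 6 of the 10 genes (Pygm, Pfkm, Aldoa, Gapdh, Pgk1, and Pkm). Windows of Aldoa that overlap hold the same stretch, so the 8 windows count it more than once. Across 32851 windows of the same length, 19.6% held them. Pfkm, Aldoa, and Pkm have several windows each, so this share of windows is no measure for the count of genes. The share over all genes was not determined. The longer CACGTG, which contains ACGTG on both strands, occurred in 1 member, Pfkm, and in 7.15% of all windows. A match is a description of letters and not a site shown to be bound. The 250 bases before the start are given for Pgk1 and Pygm, which hold the letters, and for Eno3 and Pgam2, the genes that passed the genotype test below and do not hold them in this window. Capitals mark ACGTG or its reverse complement CACGT, and each sequence runs 5′ to 3′ on the strand of the gene.
Pgk1, chrX:106186850-106187099, + strand: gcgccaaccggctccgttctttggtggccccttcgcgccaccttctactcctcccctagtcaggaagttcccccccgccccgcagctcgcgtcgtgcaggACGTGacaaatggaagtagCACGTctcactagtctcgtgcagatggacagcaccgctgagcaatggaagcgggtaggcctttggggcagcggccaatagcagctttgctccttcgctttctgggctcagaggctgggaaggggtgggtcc
Pygm, chr19:6384158-6384407, + strand: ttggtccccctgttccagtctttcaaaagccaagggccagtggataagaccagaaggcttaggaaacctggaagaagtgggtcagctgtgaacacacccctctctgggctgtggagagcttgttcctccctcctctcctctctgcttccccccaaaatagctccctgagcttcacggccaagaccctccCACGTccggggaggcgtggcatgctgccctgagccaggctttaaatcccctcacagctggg
Eno3, chr11:70656926-70657175, + strand: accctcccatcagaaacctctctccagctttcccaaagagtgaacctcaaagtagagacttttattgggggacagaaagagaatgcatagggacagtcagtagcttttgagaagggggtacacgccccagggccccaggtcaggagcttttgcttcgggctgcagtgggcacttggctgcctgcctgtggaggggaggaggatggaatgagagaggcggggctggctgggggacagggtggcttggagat
Pgam2, chr11:5803797-5804046, - strand: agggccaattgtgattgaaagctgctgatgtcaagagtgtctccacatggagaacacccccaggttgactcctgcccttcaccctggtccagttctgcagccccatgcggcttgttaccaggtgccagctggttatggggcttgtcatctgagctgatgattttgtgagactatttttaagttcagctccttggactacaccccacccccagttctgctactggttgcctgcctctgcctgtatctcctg

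The 63 libraries held 2359780 to 40377963 counts (median 16236352), and 3 held fewer than 5000000. Levels are given as CPM, the usual library-size-scaled count, with TMM factors that correct for library composition, and changes as log2 fold changes of edgeR's quasi-likelihood model with a 95% interval. Genes were called at an adjusted p below 0.1 over the 15241 genes tested, among which were all 10 enzymes. Whole-gene Hif1a counts were 36.4 ± 6.31 CPM in fl/fl (SD, n = 32) and 36.4 ± 4.80 in HIF1α KO (n = 31) muscle. The floxed exon 2 is counted together with all other exons, so these counts do not check the genotype labels. The mice are numbered 1 to 64. In blocks of 16 consecutive numbers, the share of counts on the 2 mitochondrial ribosomal RNAs had medians of 6.55, 1.84, 2.67, and 5.13%, and single libraries ranged from 0.712 to 11.6%. The sources used here do not say what the mouse numbers stand for.

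The 10 enzyme genes together took 2.92% ± 0.430 of all counts (SD, n = 63, from 1.71 to 3.89%). On GRCm38, Eno3 (ENSMUSG00000060600.15) lies on chromosome 11 from 70657202 to 70662513, and Pgam2 (ENSMUSG00000020475.3) lies on the same chromosome from 5801640 to 5803733. Pfkm lies on chromosome 15 from 98092589 to 98132451, Pygm on chromosome 19 from 6384399 to 6398459, and Pgk1 on the X chromosome from 106187100 to 106203699. Counts covered all annotated exons of each gene, untranslated parts included. Aldoa, which cleaves fructose bisphosphate, had rank 11 of all genes by mean CPM, and Pgk1, the lowest, had rank 557. The counts behind a single value ran from 277 for Pgk1 to 536382 for Aldoa.

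Per kilobase of annotated exon, with all annotated transcripts of a gene merged, the order began with Aldoa at 3601 ± 411 CPM per kb (SD, n = 63 here and below). Eno3, the muscle enolase, followed at 2337 ± 312.5. Pgam2, the muscle phosphoglycerate mutase, stood at 1372.5 ± 179.5 and Pygm, muscle glycogen phosphorylase, at 1351 ± 261. These 2 genes did not differ in order beyond their spread, since Pgam2 was the higher of them in 29 of 63 libraries. Pfkm, the muscle phosphofructokinase that commits sugar to glycolysis, reached 774 ± 123, and Tpi1, triosephosphate isomerase, 582 ± 94.1. Pkm, pyruvate kinase, stood at 500 ± 76.1 and Gapdh, glyceraldehyde phosphate dehydrogenase, at 413 ± 67.1. Gpi1, glucose phosphate isomerase, and Pgk1, phosphoglycerate kinase, were far lower, at 81.7 ± 19.6 and 63.2 ± 13.1. Aldoa exceeded Eno3, Eno3 exceeded Pgam2, Pygm exceeded Pfkm, and Gapdh exceeded Gpi1 in all 63 libraries. The ranges of Gapdh and Gpi1 did not overlap, whereas every other pair of neighbors overlapped across mice. The other neighbors kept their order in 48 to 60 libraries.

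**Figure D1:**
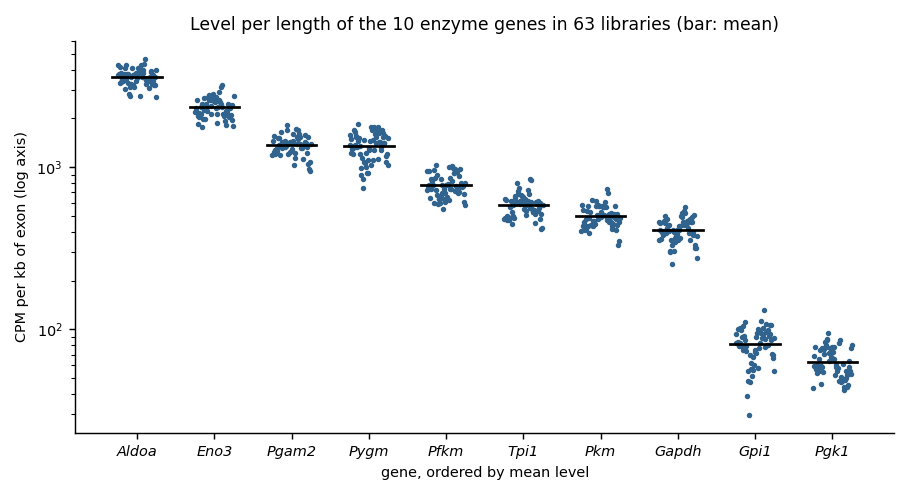
Level of each enzyme gene per kilobase of exon (log axis), 1 point per library (n = 63) and a bar at the mean. The genes are ordered by their mean, from Aldoa at 3601 to Pgk1 at 63.2 CPM per kb, and Gpi1 and Pgk1 sit apart from the others.

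These levels depend on exon length and on how shared sequence was counted. The merged exon length ran from 840 bases for Pgam2 to 6452 for Gpi1, with 5001 for Pkm and 4133 in 2 blocks for Gapdh. Where the transcripts present in muscle are shorter than this length, the level per kb is too low. The order between genes is uncertain to that extent. Of the 52-base windows in its annotated transcripts, Pgk1 shared 53.8% with other genes, which were 5 pseudogenes. Gapdh shared 24.8% with 214 other genes, 205 of them pseudogenes. Pkm shared 25%, Gpi1 15.3%, and the other 6 genes 0 to 8.77%, with Pgam2 and Eno3 at 0. Exons of Gpi1, Pfkm, Aldoa, Tpi1, Gapdh, and Pkm overlap another annotated gene, and the strand setting of the count is not given in the sources used here. How reads matching several places were treated is not given either, so the level of Pgk1 in particular is uncertain. Pkm also counts both of its splice forms together.

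For the 8 steps with other isoform genes, the members supplied nearly all of the counted level per kb. Sequence that the other isoforms share with further genes was not examined. Any reads lost from them in this way would raise the shares given here. Pygm made up 99.79% of the level per kb of the glycogen phosphorylase genes (range 99.59 to 99.90%), the remainder being the liver form Pygl and the brain form Pygb. Pfkm made up 99.71% and Eno3 99.80% of their families, where Eno1, at 23.4 CPM, was the most abundant of the other isoforms. Aldoc, Gapdhs, Pgk2, and Pklr were too low to be tested.

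Transcripts of 2 enzymes of the lower pathway were called slightly higher in HIF1α KO muscle, and none of the 10 was called lower. Eno3 ranged from 3062 to 5090 CPM (median 3724) in fl/fl and from 3405 to 5568 (median 4274.5) in HIF1α KO muscle. The groups overlapped, and the mean was higher in HIF1α KO by 0.16 on the log2 scale (95% interval 0.08 to 0.25, 12.0%, adjusted p = 0.0173). Pgam2 ranged from 794 to 1436 CPM (median 1107) in fl/fl and from 815.5 to 1533 (median 1184) in HIF1α KO, again with overlap. Its change was 0.13 (0.04 to 0.22, 9.52%, adjusted p = 0.0746). These were 2 of 10 members, both higher, while 8.26% of all tested genes were called in this comparison and 4.68% were called higher.

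Pgk1 and Aldoa had intervals above 0 but did not pass. Pgk1, which makes the first ATP of the pathway, differed by 0.17 (0.04 to 0.31, adjusted p = 0.116), and Aldoa by 0.10 (0.01 to 0.18, adjusted p = 0.162). When blocks of 16 mouse numbers were added to the model, Aldoa passed as well (0.11, adjusted p = 0.0774), so that 3 of 10 members were called beside 7.43% of all genes. Tpi1 differed by 0.08, and Pygm, Gpi1, Pfkm, Gapdh, and Pkm by -0.02 to 0.02. In all, 8 of 10 genes lay above 0, and the median of the 10 was 0.050, against -0.003 for all genes tested. Medians were also above 0 for general muscle fiber markers (0.08), fast glycolytic fiber markers (0.06), and other pathway genes (0.04), lists described below. They were below 0 for slow fiber markers (-0.02) and the other isoforms (-0.08). In this averaged comparison the lowest end of any interval was -0.19 (Gpi1). A loss of more than 0.19 on the log2 scale lay outside the interval of each member there. Within single combinations the intervals were wider and reached -0.58 (Gpi1, exercised mice at ZT3).

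The genotype calls were small and depended on scaling. With libraries scaled by total counts alone, neither gene passed (adjusted p = 0.243 for Eno3 and 0.368 for Pgam2), although the fold changes stayed at 0.16 and 0.13. Pgam2 also missed the threshold without a sex term (0.115) or without the filter on low counts (0.158), and Eno3 kept its call there. General muscle fiber markers, 4 genes of which 0 were called, summed to 25582 to 43274 CPM in fl/fl and 29108.5 to 47834 in HIF1α KO libraries. Fibroblast markers, of which 1 of 4 was called lower in HIF1α KO, summed to 942 to 2773 CPM in fl/fl and 836 to 1986.5 in HIF1α KO. Of 2 satellite cell markers, 1 was called higher (Myf5, 0.35), with sums of 0.00 to 4.47 CPM in fl/fl and 1.62 to 4.84 in HIF1α KO. The fast fiber, slow fiber, erythroid, adipocyte, leukocyte, and endothelial lists held 0 called genes. The part of these markers in the result was not tested.

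**Figure D2:**
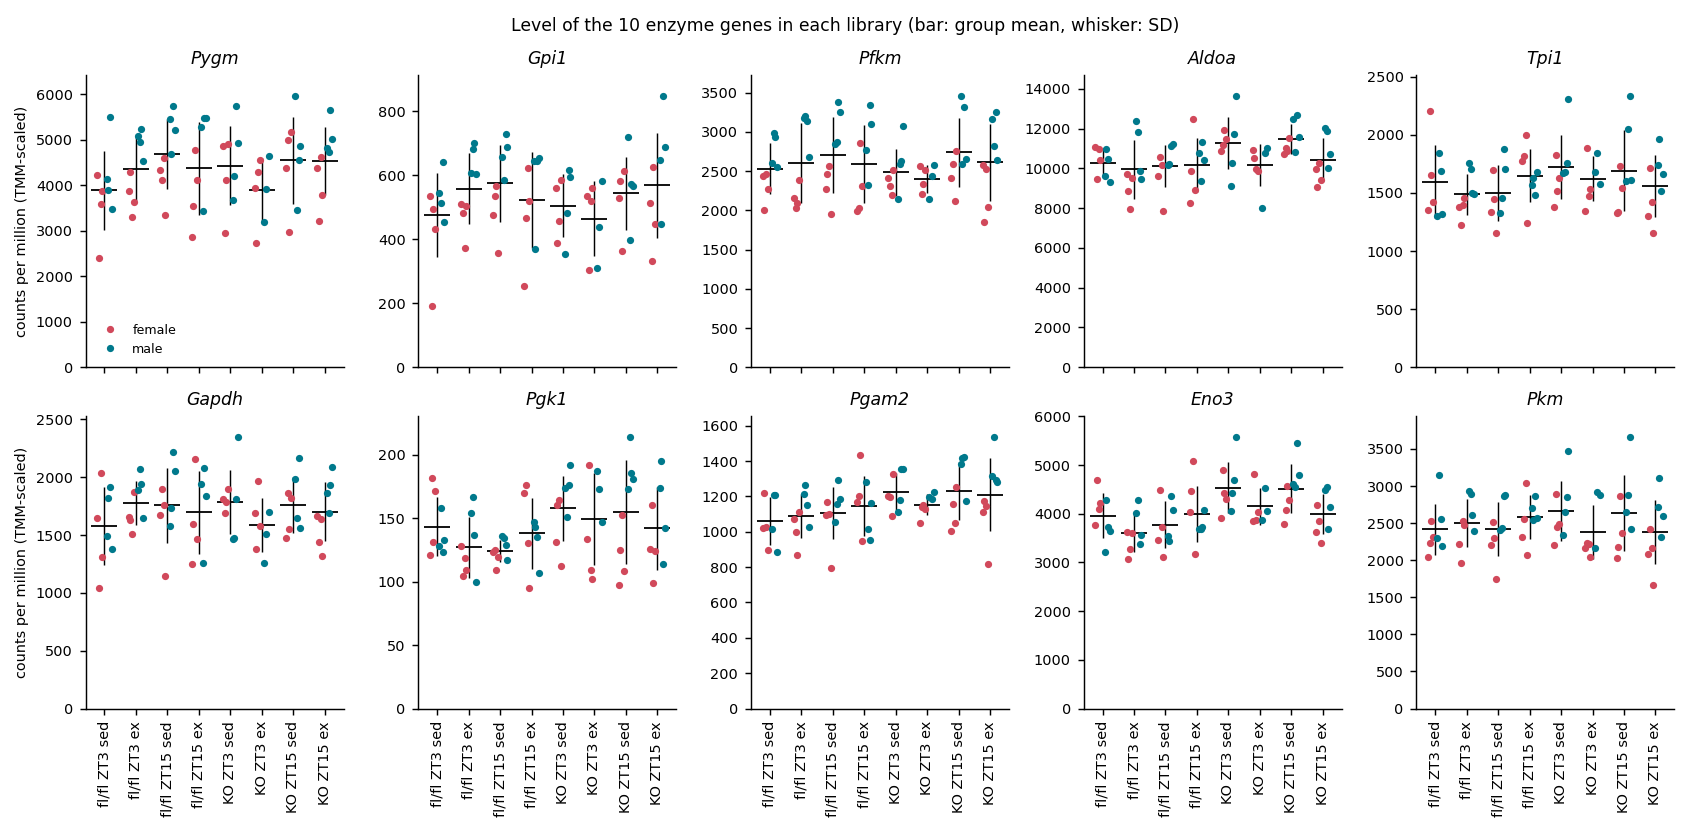
TMM-scaled CPM of each gene in every library (vertical axis from 0) for the 8 groups, with females in red and males in blue, the group mean as a bar, and the SD as a whisker. For Eno3, all 8 group ranges overlap one another in part, and 3 of 4 HIF1α KO groups have a higher mean than the matching fl/fl group.

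Within each combination of time and activity, 0 of 10 members passed the genotype test by edgeR or DESeq2. An unadjusted p below 0.05 was found for 0 to 3 members and for 6.81 to 17.4% of all genes. In sedentary mice at ZT15, where the largest single difference was found (Pgk1), Eno3 ranged from 3121 to 4494 CPM (median 3632.5) in fl/fl and from 3791 to 5464 (median 4555) in HIF1α KO. That is a difference of 0.26 (0.08 to 0.43, adjusted p = 0.360). Pgk1 differed there by 0.30 (0.04 to 0.56, adjusted p = 0.433), from 109 to 135.5 CPM in fl/fl and 97.5 to 213 in HIF1α KO, so that the HIF1α KO libraries spanned the fl/fl range on both sides. After exercise at ZT15, by contrast, Eno3 differed by -0.00 (-0.18 to 0.17). In exercised mice at ZT3, 5 of 10 members lay below 0 and the median was -0.009. Gpi1 was the lowest there, at -0.22 (-0.58 to 0.14, adjusted p = 0.529), and Pgk1 the highest, at 0.24 (-0.03 to 0.52, adjusted p = 0.337). The share of all genes called was also low in these comparisons, at 0.400% in sedentary mice at ZT3, 1.43% in exercised mice at ZT3, 0.0459% in sedentary mice at ZT15, and 0.400% in exercised mice at ZT15. With 7 or 8 mice a group, a miss here does not show equal levels.

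Time of day left all 10 genes uncalled. Between ZT3 and ZT15, with 8.02% of all genes called, 0 of 10 members passed by edgeR or DESeq2, and the changes lay between -0.05 and 0.13. The unadjusted p was below 0.05 for 0 members and for 17.5% of all genes. Pygm, whose enzyme releases glucose phosphate from glycogen, had a median of 4142 CPM at ZT3 (2408 to 5736) and of 4658 CPM at ZT15 (2864 to 5957), with the 2 ranges overlapping. Its change of 0.12 had an interval from -0.00 to 0.25 (adjusted p = 0.306). Gpi1 followed at 0.13 (-0.04 to 0.31, adjusted p = 0.452). Of the 10 changes, 8 were above 0, but under scaling by total counts 6 of those (Pfkm, Aldoa, Gapdh, Pgam2, Eno3, and Pkm) turned below 0. With the blocks of mouse numbers in the model, Pygm passed (0.12, adjusted p = 0.0727), 1 of 10 members beside 13.3% of all genes. Within single combinations 0 of 10 passed throughout, while the share of all genes called was 1.88% (fl/fl, sedentary), 1.18% (fl/fl, exercised), 0.479% (HIF1α KO, sedentary), and 0.663% (HIF1α KO, exercised).

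Exercise was not followed by a detectable change in any member 3 h later. The 10 changes lay between -0.09 and 0.01, 9 of them below 0, with a median of -0.034 against -0.004 for all genes, and 0 of 10 passed by edgeR or DESeq2 where 2.84% of all genes did by edgeR. At an unadjusted p below 0.05, 1 of 10 members passed, beside 10.9% of all genes. Eno3 had the lowest value, -0.09 (-0.18 to -0.00, adjusted p = 0.429), with 3121 to 5568 CPM (median 4252) in sedentary and 3062 to 5090 (median 3878) in exercised mice. Aldoa followed at -0.08 (-0.17 to 0.00, adjusted p = 0.462). No interval of the averaged comparison reached beyond -0.18 or 0.19. In HIF1α KO mice at ZT3 all 10 values were below 0 (median -0.110), and in fl/fl mice at ZT3 6 of 10 were above 0 (median 0.033). Neither set held a called gene, and 0.236% of all genes were called in fl/fl at ZT3, 0% in fl/fl at ZT15, 0.131% in HIF1α KO at ZT3, and 0.0591% in HIF1α KO at ZT15. At the unadjusted threshold of 0.05, 1406 genes passed in fl/fl at ZT15, the comparison without a call by edgeR (15 by DESeq2).

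**Figure D3:**
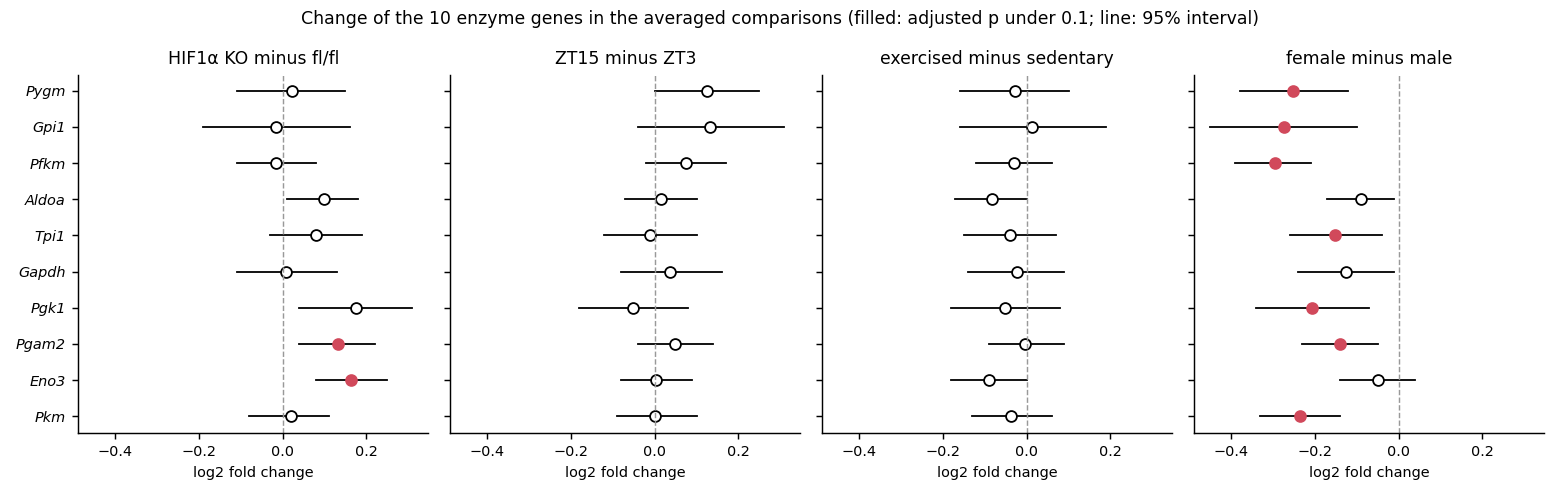
Log2 fold change of each enzyme gene with its 95% interval for genotype, time, exercise, and sex, each averaged over the other factors. Filled points passed an adjusted p of 0.1, which are Pgam2 and Eno3 for genotype, none for time or exercise, and 7 of 10 for sex.

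The tests of whether one factor changed the effect of another called 0 of 10 members and 0 of 15241 genes (0%) in each of 6 interactions by edgeR. Unadjusted p-values below 0.05 numbered 342 to 2861 genes (2.24 to 18.8%) in the 6 interactions, and 1 member had one in 1 of them. That was Eno3, whose exercise response at ZT15 had a difference of -0.26 between HIF1α KO and fl/fl (-0.51 to -0.01, adjusted p = 0.545). DESeq2 called 0 members and 0 to 196 genes in these tests. Gpi1 and Pgk1 had the widest estimates in opposite directions. For the difference between ZT15 and ZT3 in the response of fl/fl mice, Gpi1 stood at -0.36 (-0.84 to 0.13) and Pgk1 at 0.35 (-0.02 to 0.72). The fl/fl groups held unequal numbers of mice from the second block of mouse numbers, from 0 to 3. Scaling by total counts moved the median of all genes in this interaction by 0.26, and Eno3 and Pgk1 were then called, 2 of 10 members beside 15.7% of all genes.

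**Figure D4:**
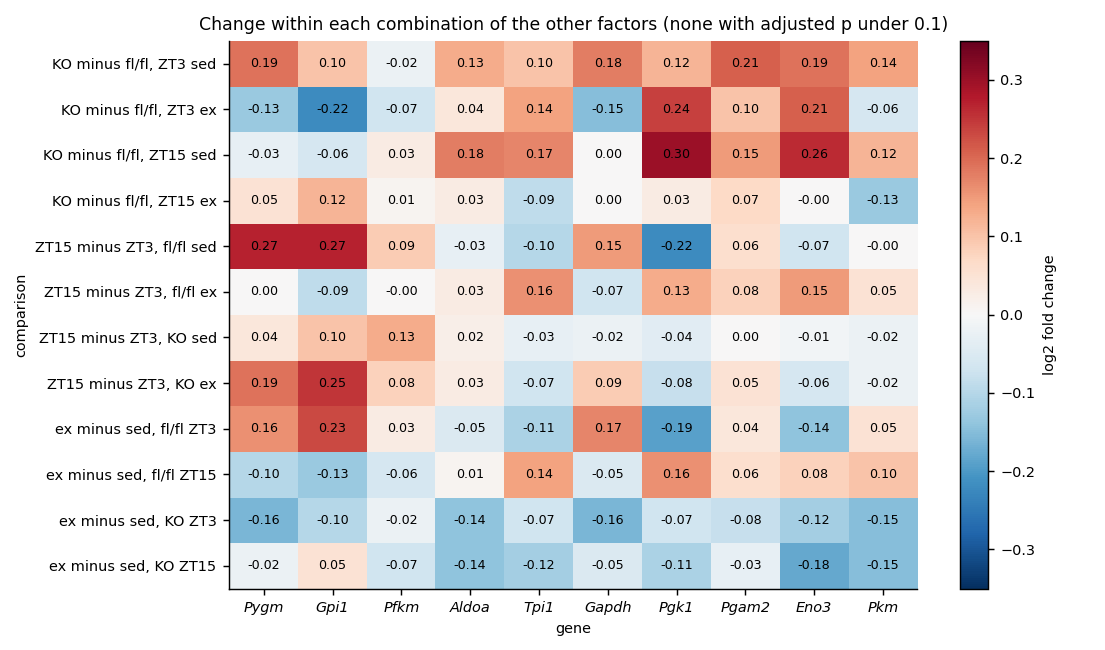
Log2 fold change of each enzyme gene in the 12 comparisons made within 1 combination of the other factors, as numbers and colors. None passed an adjusted p of 0.1, and Gpi1 and Pgk1 often have opposite signs, as in exercise in fl/fl mice at ZT3 (0.23 and -0.19).

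Every member was lower in females than in males, with changes from -0.30 to -0.05, and 7 of 10 passed, all of them lower in females. In the same comparison 25.1% of all genes were called and 13.3% were lower in females, and the median was -0.179 for the 10 genes against 0.011 for all genes. Pfkm, the committing step, ranged from 1851 to 2861 CPM (median 2322) in 32 females and from 2141 to 3453 (median 2842) in 31 males. Its change was -0.30 (-0.39 to -0.21, adjusted p = 5.19e-07). Pkm, the last step, ranged from 1669 to 3047 CPM (median 2237) in females and 2168 to 3654 (median 2651) in males, a change of -0.24 (-0.33 to -0.14, adjusted p = 9.65e-05). In both genes the ranges of the sexes overlapped.

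Pygm and Gpi1, at the entry of the pathway, changed by similar amounts. Pygm was at 3963 ± 717 CPM in females (SD, n = 32) and 4742 ± 778 in males (n = 31), a change of -0.25 (adjusted p = 0.00228). Gpi1 changed by -0.27 (adjusted p = 0.0179), Pgk1 by -0.21 (0.0185), Tpi1 by -0.15 (0.0399), and Pgam2 by -0.14 (0.0191). The genes that did not pass were Gapdh at -0.12 (-0.24 to -0.01), Aldoa at -0.09 (-0.17 to -0.01), and Eno3 at -0.05 (-0.14 to 0.04). With the blocks of mouse numbers in the model, Gapdh (-0.12, adjusted p = 0.0656) and Aldoa (-0.09, adjusted p = 0.0920) passed as well, which made 9 of 10 members beside 29.6% of all genes. Group by group, with 4 females and 3 or 4 males each, Pygm and Pkm had the lower female mean in 8 of 8 groups, Gpi1, Pfkm, and Pgam2 in 7, and Aldoa in 5. In 4 of 8 groups every female lay below every male for Pfkm, and in 3 for Pygm. The number was 2 for Gpi1 and Pgam2, 1 for Tpi1, Gapdh, and Pgk1, and 0 for Pkm, Aldoa, and Eno3. The share of all genes that separated the sexes in this way was not determined, so these counts do not set the members apart from other genes.

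The sexes also differed in fiber markers. All 7 slow fiber markers were called higher in females, with summed levels of 623.5 to 3833.5 CPM in females and 346 to 1773 in males. Of 7 fast glycolytic fiber markers, 3 were called lower in females (71831 to 132939 CPM in females and 80327 to 141658 in males), as were 3 of 4 general muscle fiber markers. All 4 adipocyte markers were called higher, at 57 to 359 CPM in females and 45.6 to 261 in males. Of the fibroblast markers, 2 of 4 were also called higher in females (836 to 1986.5 CPM in females and 939 to 2773 in males), and 3 of 5 erythroid markers were called lower (73.4 to 226 CPM in females and 80.9 to 529.5 in males). The leukocyte, endothelial, and satellite cell lists held 0 called genes, and the part of these markers in the result was not tested. With a slow fiber score as a covariate, all 10 enzymes remained below 0 with a median of -0.173, and 2 (Pfkm and Pkm) passed beside 15.5% of all genes. Scaled by total counts, 4 passed (Pygm, Gpi1, Pfkm, and Pkm) beside 18.2% of all genes. In bulk muscle, fewer fibers of a type and less RNA per fiber cannot be told apart.

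Calls were also made among the other isoforms and the neighboring genes of the pathway. Of the 12 other isoforms 7 were tested. For genotype 1 of the 7 was called, beside 8.26% of all genes. Pfkl, the liver phosphofructokinase, was lower in HIF1α KO (-0.25, adjusted p = 0.0684), and Pfkp (-0.15, 0.201) and Pgam1 (0.22, 0.278) had the next smallest p-values. None was called for time, where Pygl, Pygb, and Pgam1 came first (adjusted p = 0.409 to 0.514), or for exercise, where Pgam1, Pfkp, and Pygb did (0.263 to 0.803). For sex 2 of the 7 were called, beside 25.1% of all genes. Pygl (0.43, adjusted p = 0.00105) and Pfkl (0.24, adjusted p = 0.0334) were higher in females, opposite in sign to Pygm and Pfkm. Eno1 was at -0.15 (0.129).

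Of 23 other pathway genes 22 were tested. In HIF1α KO muscle 2 of the 22 were called higher and 0 lower, beside 8.26% of all genes called. Bpgm, which makes bisphosphoglycerate, was one of them (0.12, adjusted p = 0.0893), and Pfkfb4 did not pass (0.14, 0.166). At ZT15, 2 were called higher and 1 lower, beside 8.02% of all genes. Pfkfb3, which makes the fructose bisphosphate that activates phosphofructokinase, was the gene called lower (-1.88, adjusted p = 4.43e-15). Pfkfb4 (0.19, 0.0345), an enzyme of the same kind as Pfkfb3, was higher. After exercise 2 were called higher and 1 lower, beside 2.84% of all genes. Pfkfb3 was lower (-0.92, adjusted p = 1.27e-05), and Pfkfb4 (0.26, 0.00335) and Hk2, the main muscle hexokinase (0.42, 0.0235), were higher. In females 10 of 22 were lower, beside 13.3% of all genes called lower and 25.1% called in either direction. They were led by Phkb (-0.38, adjusted p = 1.24e-13) and Phka1 (-0.34, adjusted p = 7.18e-10), subunits of the kinase that switches on glycogen phosphorylase. Another 2 were higher, Fbp2, the muscle fructose bisphosphatase of the opposite direction (0.66, adjusted p = 3.67e-09), and Phka2 (0.16, 0.0121).

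Across libraries, the 10 genes did not vary as 1 unit. After group and sex means were removed from log2 CPM, 36 of 45 pairs had a positive Pearson r, and the pairs ranged from -0.60 to 0.91 with a median of 0.50 (n = 63 libraries, each shared by all genes). Pygm and Gpi1 rose and fell together (r = 0.91, Spearman rho = 0.91, r = 0.91 without the 2 libraries farthest in Pygm, 0.74 to 0.93 within blocks). Tpi1 and Eno3 did so as well (r = 0.89, rho = 0.87, 0.88 without the 2 farthest in Tpi1, 0.74 to 0.94 within blocks). Gpi1 and Pgk1 ran against each other (r = -0.60, rho = -0.58, -0.53 without the 2 farthest in Gpi1, -0.51 to -0.15 within blocks). For these 3 pairs the permutation p was 1e-05, the smallest 100000 permutations give, with Benjamini-Hochberg values over 45 pairs of 2.2e-05 for r and 2.5e-05 for rho. Libraries were permuted without regard to block, so these p-values do not separate shifts between blocks from relations within them.

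The same genes were ordered by the mitochondrial rRNA share of the library. Gpi1 had a positive relation to it (r = 0.68, rho = 0.60, 0.61 without the 2 farthest libraries), as had Pygm (r = 0.59, rho = 0.57, 0.54 without the 2). Tpi1 had a negative one (r = -0.70, rho = -0.69, -0.68 without the 2). Each of the 3 had a permutation p of 1e-05 and adjusted values over 10 genes of 3.3e-05 for r and 2.5e-05 for rho, again with libraries permuted without regard to block. Within the 4 blocks the relation of Tpi1 stayed negative (-0.71 to -0.35), while those of Gpi1 (-0.16 to 0.82) and Pygm (-0.15 to 0.74) did not keep their sign. In the second block, mice 17 to 32, Gpi1 lay 0.43 and Pygm 0.30 below their group and sex means on the log2 scale, and Pgk1 lay 0.23 above. The groups held unequal numbers of mice from the blocks, with 0 to 4 mice from a block, and fl/fl mice exercised at ZT3 included 4 from the first block and 0 from the second. Of the genes called for genotype, Eno3 also had a negative relation to the share (r = -0.51, rho = -0.52) and Pgam2 a weaker one (r = -0.24, rho = -0.22). Mitochondrial rRNA shares were 0.712 to 8.49% in fl/fl (mean 4.51) and 1.26 to 11.6% in HIF1α KO libraries (mean 3.98). With this share as a covariate Eno3 and Pgam2 were still called for genotype and the same 7 genes for sex.

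**Figure D5:**
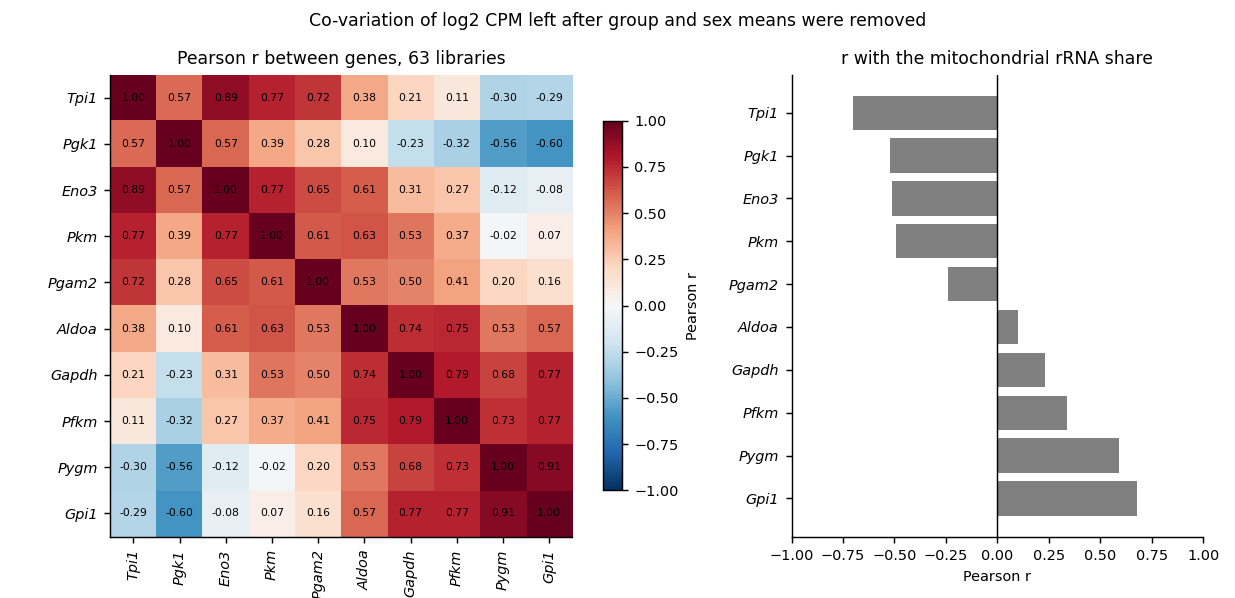
Left, Pearson r between the enzyme genes over 63 libraries after removal of group and sex means (red positive, blue negative). Right, Pearson r of each gene with the log2 mitochondrial rRNA share of the library, from -0.70 for Tpi1 to 0.68 for Gpi1.

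Among 2950 other genes with a mean log2 CPM of at least 5, those most like the average of the 10 in the same residuals included Ak1 (r = 0.79), the muscle adenylate kinase, Pgm1 (0.72), the phosphoglucomutase that links glycogen to glycolysis, Ppp6r2 (0.72), and Aamp (0.72). Spearman's rho was 0.66 to 0.72 for these 4 genes over 63 libraries.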

How the data were processed

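Poly(A) RNA of gastrocnemius was sequenced with 52-base paired ends. Per the labels, STAR (build mm10) and featureCounts produced the raw counts that the authors deposited. Versions, annotation, strand, and multi-mapping settings are not given in the sources used here. Of 55401 gene rows, 55141 matched GENCODE M21, which gave symbols, positions, and exon lengths. Of 2 rows named Aldoa, the one with 10913965 counts was used and the one with 501 was not. Library totals ranged from 2359780 to 40377963 counts in the 63 libraries used, and mouse 44 (382 counts) was left out.

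Counts were filtered (filterByExpr, minimum count 10), TMM-scaled, and fitted with edgeR 4.0.16 (R 4.3.3) by a quasi-likelihood model of 8 groups and sex, with Benjamini-Hochberg adjustment over 15241 genes and a threshold of 0.1. Genotype, time, and exercise were averaged over the other factors. Intervals used the model's standard error and 54 residual degrees of freedom. Libraries of 1 group differed beyond counting noise in all 217 pairs (lowest chi-square per degree of freedom 3.62), and each mouse was taken as 1 replicate. Residuals of log2 CPM (prior count 2) after removal of group and sex were used for correlations.

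The members and lists were chosen with earlier results of these data known. Text named all 10 members, from the lists of other isoforms and other pathway genes the 3 with the smallest p in each averaged comparison and in sex, the 5 genes most like the members' mean, and the promoter letters ACGTG and CACGTG. Phka2 and Myf5, outside this rule, were named after their values were seen, and some genes that the rule or the marker lists select are not reported here. Alternatives were the DESeq2 1.42.0 Wald test, RLE or total-count scaling, no filter beyond 1 count, no sex term, blocks of 16 mouse numbers, libraries of at least 5000000 counts, and a slow fiber score. A mitochondrial rRNA covariate and leaving out mice 20, 22, and 63 were chosen after seeing the data.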

Additional observations from a re-analysis of the deposited data

Results flagged for a closer look

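In the 80 sets made of 1 gene in 1 group, a library stood far from the rest of its group by Dixon's criterion in 4, each time as the lowest value. Chance flags about 1 in 20 such sets. Gpi1 was at 192 CPM in mouse 22 of the sedentary fl/fl group at ZT3, where the other 7 libraries held 431 to 641. Aldoa was at 7845 CPM in mouse 63 of the sedentary fl/fl group at ZT15 (others 9610 to 11238), and Pgam2 was at 794 CPM in the same mouse (others 1056 to 1292), whose library held 6618136 counts. Aldoa was also at 8002 CPM in mouse 20 of the exercised HIF1α KO group at ZT3 (others 9880 to 11036). Without these 3 mice Eno3, Pgam2, and Pgk1 (0.18, adjusted p = 0.0870) were called higher in HIF1α KO muscle, 3 of 10 members beside 11.3% of all genes. For sex, the same fit called 8 of 10 members, all lower in females, beside 25.6% of all genes in either direction, and Aldoa was the addition (-0.09, adjusted p = 0.0957). The 3 mice were picked by values of the tested genes, so the added calls are not independent of that choice.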

How the results depend on the processing

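The number of the 10 genes called moved by more than 1.5 times in 7 cases. For genotype it was 2, 0 with total counts only, 1 without the low-count filter, and 1 without a sex term. For time it was 0, and 1 with blocks of mouse numbers. For sex it was 7, 4 with total counts only, and 2 with the slow fiber score. For the difference between times in the exercise response of fl/fl mice it was 0, and 2 with total counts only. Total-count scaling shifted the median of all genes by -0.26 to 0.26 over the 12 comparisons within combinations and the 6 interactions. It turned the calls over all genes from 713 higher and 546 lower to 146 and 283 for genotype, and from 624 and 598 to 282 and 1258 for time. DESeq2, RLE scaling, and leaving out libraries under 5000000 counts gave 2 calls for genotype and 7 for sex. Blocks of mouse numbers gave 3 and 9, and leaving out mice 20, 22, and 63 gave 3 and 8. For genotype in exercised mice at ZT15, 7 of 10 changes lay above 0, and 0 of 10 with total counts only. In the averaged comparisons and in sex, signs turned only in changes that were not called, at most 0.08 in size under the alternative. For genotype, Gpi1 (0.05) and Pfkm (0.01) turned with blocks, Gpi1 (0.04) and Pkm (-0.01) with the mitochondrial rRNA share, and Gapdh (-0.01) without the 3 mice. For time, Pfkm (-0.01), Aldoa (-0.06), Gapdh (-0.04), Pgam2 (-0.03), Eno3 (-0.08), and Pkm (-0.07) turned with total counts, Eno3 (-0.00) and Pkm (-0.00) without the filter, Eno3 (-0.00) without shallow libraries, Pkm (-0.00) with blocks, and Tpi1 with the rRNA share (0.03) or without the 3 mice (0.02). For exercise, Gpi1 turned with total counts (-0.01), the rRNA share (-0.01), and without the 3 mice (-0.01), Pgam2 without shallow libraries (0.00) and with the slow fiber score (0.01), and Pygm with that score (0.00). The cause was not tested. No paired analysis was possible because the mouse numbers in the labels are unique to 1 mouse each.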
